A study of Mus musculus with 18 samples.

Results

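White pulp chemokines and their receptors are the 8 genes Ccl19, Ccl21a, Cxcl13, Cxcl12, Ccr7, Cxcr5, Cxcr4 and Gpr183, taken by gene symbol from a table of 19326 rows. All 8 were found, and all 8 were among the 12969 genes tested. The table held 18 RNA libraries from whole spleens of 10 weeks old mice of the outbred ICR stock, with 3 libraries in each of 6 groups. HFD+AOS-FMT mice received a high fat diet and FMT that is read here as coming from donors given AOS at 10 mg/kg, HFD+control-FMT mice the diet and FMT read as coming from control donors, HFD+AOS mice the diet and AOS at 10 mg/kg, HFD mice the diet alone, AOS mice AOS at 10 mg/kg with no diet named, and control mice no named treatment. AOS is read here as alginate oligosaccharide, a mixture of short sugars cut from brown algae, and FMT as faecal microbiota transplantation; neither abbreviation is spelled out in the labels. The study asked what transplanted gut microbiota does to a spleen damaged by a high fat diet.

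The white pulp of the spleen is lymphoid tissue laid out around small arteries, and chemokines made by its stromal cells hold lymphocytes in place there. CCL19 and CCL21 draw T cells and dendritic cells that carry CCR7 into the T cell zone, CXCL13 draws B cells that carry CXCR5 into follicles, and CXCL12 acts on CXCR4, which many white blood cells carry. GPR183, also called EBI2, is a receptor for oxysterols, which are made from cholesterol, and guides B cells and dendritic cells to the edges of follicles. In whole spleen RNA, fewer cells of a type and less RNA per cell cannot be told apart.

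Ccl19 and Ccl21a lie next to each other on mouse chromosome 4, at chr4:42754525-42756577 and chr4:42772860-42773993 on the minus strand of GRCm38, while Cxcl13 lies at chr5:95956951-95961068 and Cxcl12 at chr6:117168535-117181367 on the plus strand. The receptor genes lie at chr11:99144196-99155077 (Ccr7), chr9:44511787-44561877 (Cxcr5), chr1:128588199-128592293 (Cxcr4) and chr14:121952551-121965195 (Gpr183), all on the minus strand. Because the levels of Ccl19 and Ccl21a moved together over the libraries, as given below, and those of Cxcl13 and Cxcl12 did not follow them, the promoters of the 4 ligands are shown from RefSeq on GRCm38.p6. Each runs from 250 bases before the RefSeq gene start to 50 bases after it. Those of Ccl19 and Ccl21a lie at chr4:42756316-42756615 and chr4:42773942-42774241 on the minus strand. Those of Cxcl13 and Cxcl12 lie at chr5:95956689-95956988 and chr6:117168285-117168584 on the plus strand. Capitals mark matches on either strand to TATAAA (the TATA box), to GAAA, any 2 bases and GAAA again (the core of an interferon-stimulated response element), and to GGG, any 5 bases and CC (a loose NF-kB-type site).
Ccl19: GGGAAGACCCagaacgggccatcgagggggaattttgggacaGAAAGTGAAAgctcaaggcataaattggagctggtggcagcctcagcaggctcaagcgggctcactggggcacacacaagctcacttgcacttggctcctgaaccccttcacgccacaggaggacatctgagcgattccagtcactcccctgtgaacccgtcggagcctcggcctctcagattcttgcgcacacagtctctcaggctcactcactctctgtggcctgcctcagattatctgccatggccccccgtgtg
Ccl21a: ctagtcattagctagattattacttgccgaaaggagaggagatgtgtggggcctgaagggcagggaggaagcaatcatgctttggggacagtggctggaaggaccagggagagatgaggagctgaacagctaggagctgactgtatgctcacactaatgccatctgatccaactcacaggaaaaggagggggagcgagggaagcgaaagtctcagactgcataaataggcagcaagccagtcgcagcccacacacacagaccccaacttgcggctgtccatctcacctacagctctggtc
Cxcl13: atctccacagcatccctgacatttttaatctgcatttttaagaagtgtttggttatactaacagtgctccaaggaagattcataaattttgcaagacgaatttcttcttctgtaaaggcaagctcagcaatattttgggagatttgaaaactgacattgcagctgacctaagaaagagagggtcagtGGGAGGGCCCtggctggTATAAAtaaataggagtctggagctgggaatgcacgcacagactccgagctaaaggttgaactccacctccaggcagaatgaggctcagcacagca
Cxcl12: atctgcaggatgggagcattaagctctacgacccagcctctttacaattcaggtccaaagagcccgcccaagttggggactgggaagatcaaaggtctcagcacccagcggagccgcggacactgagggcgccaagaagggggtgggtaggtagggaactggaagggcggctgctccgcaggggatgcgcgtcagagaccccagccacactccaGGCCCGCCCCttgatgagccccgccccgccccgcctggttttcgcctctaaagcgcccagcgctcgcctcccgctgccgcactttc
In the Ccl19 window GAAAGTGAAA matched the paired GAAA at position -208 from the RefSeq gene start. Of the 32851 mouse promoters of the same length, 3.44% held that motif. RefSeq starts Ccl19 at 42756365, whereas the GENCODE position given above starts it at 42756577. By GENCODE, most of this window and the match therefore lie inside the gene. The Ccl21a window held none of the 3 motifs. Only Cxcl13 among the 4 ligands held TATAAA, at position -46, against 13.6% of all promoters. The loose NF-kB-type letters were in the windows of Ccl19, Cxcl13 and Cxcl12, and in 50.8% of all promoters. No marked match overlapped another. RefSeq's table matched 6 of the 8 genes; Ccr7 and Cxcr5 had no entry.

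A few libraries stood apart before any comparison. Haemoglobin transcripts took 10.8% to 34.3% of all FPKM (fragments scaled by transcript length and by library size), and the highest share was in control replicate 1. Neutrophil markers summed to 15671 FPKM in control replicate 1 and 4283 FPKM in control replicate 2, against 384 to 1478 FPKM in the other libraries. Control replicate 1 also had the lowest summed T cell markers, at 264 FPKM against at least 425 FPKM elsewhere, and the lowest summed B cell markers, at 1592 FPKM against at least 2067 FPKM elsewhere. It was the lowest of 18 libraries for 33.9% of the genes tested. Exocrine pancreas markers ranged between 20.7 and 10634 FPKM in sum, with the highest value in HFD+AOS replicate 2, and testis markers summed to 16.3 to 251 FPKM in control libraries, against 0.45 to 12.6 FPKM in the others. Markers of T cells, B cells and red pulp macrophages were above 0 in every library. The labels do not say that libraries came from separate animals, so the p-values measure the spread between libraries only. The depth is unknown, because the table holds no counts.

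On the per-length FPKM scale Ccl21a was far the most abundant of the 8, with a mean of 1195 FPKM over the 18 libraries, followed by Cxcl13 at 243, Cxcl12 at 232, Ccl19 at 175, Cxcr4 at 130.2, Cxcr5 at 84.7, Ccr7 at 56.7 and Gpr183 at 22.4 FPKM. The HFD group had the highest mean of the 6 groups for 5 of the 8 genes, and HFD+control-FMT for 2. The control group had the lowest mean for 5. Over all genes tested, HFD had the highest mean for 29.8% and control the lowest for 33.3%. Control replicate 1 was the lowest library for 7 of the 8, all but Cxcr4.

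**Figure D1:**
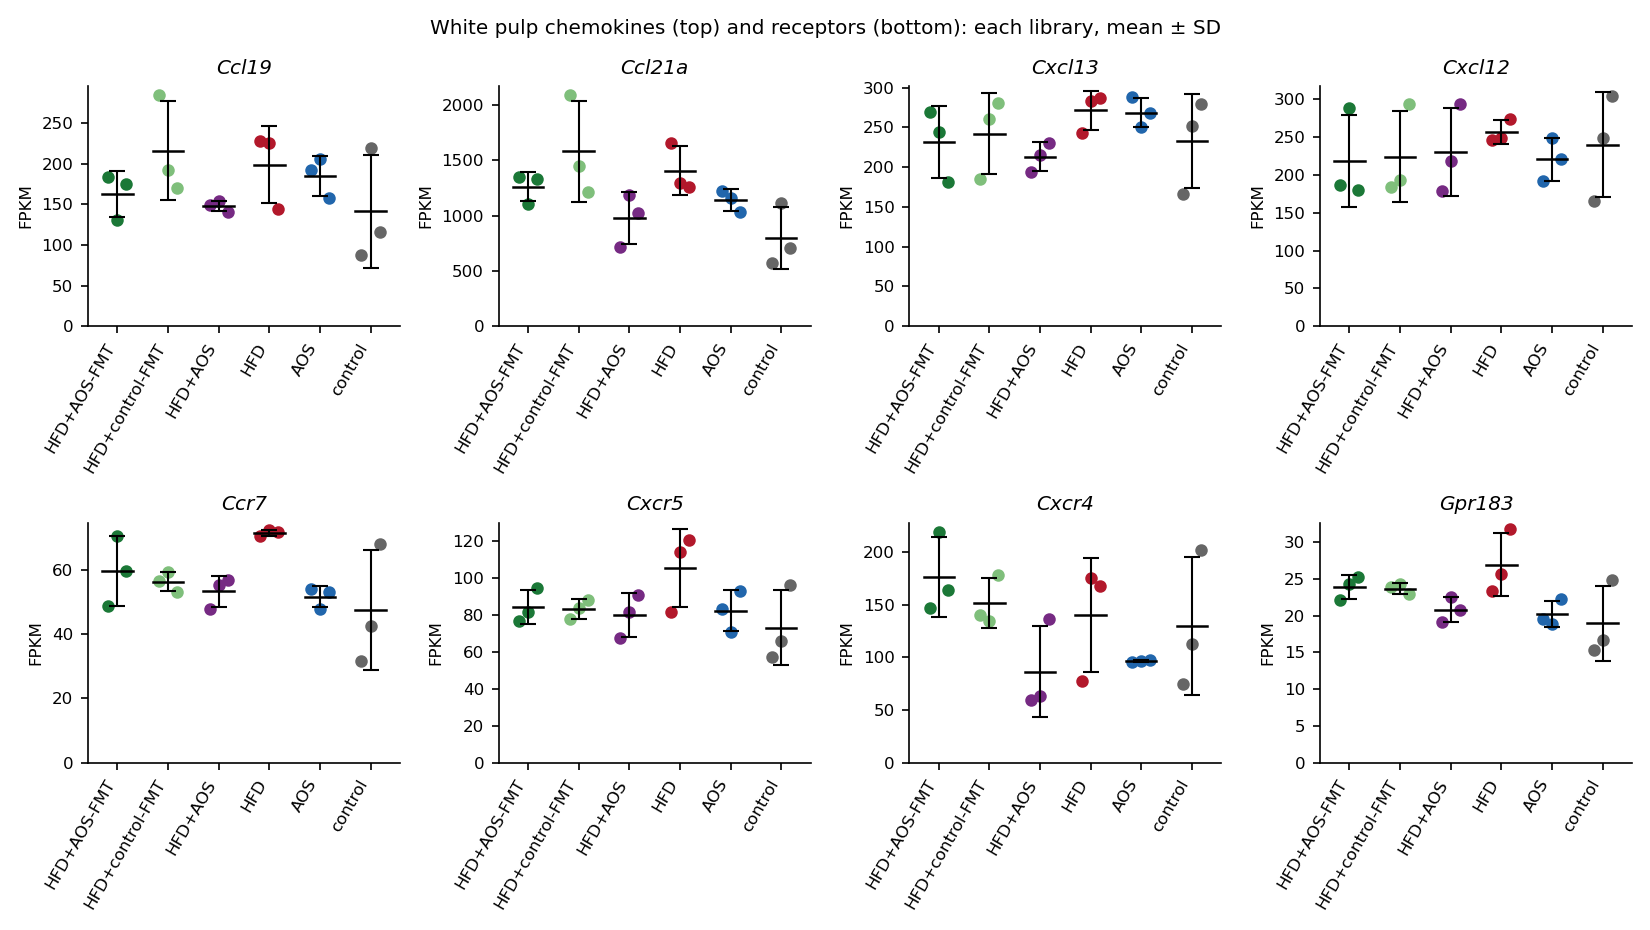
Level of each gene in FPKM (vertical axes, from 0) in the 6 groups (horizontal axes), with ligands in the top row and receptors in the bottom row; points are libraries, lines are means and bars are SD of 3 libraries. The 3 HFD libraries of Ccr7 lie between 70.5 and 72.4 FPKM, above every other library, and the control groups of most genes spread widely.

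Ccl21a encodes the T zone chemokine CCL21, which binds to matrix and vessel walls. Over replicates 1 to 3 it had 1347, 1109 and 1335 FPKM in HFD+AOS-FMT, 2096, 1446 and 1212 in HFD+control-FMT, 721, 1186 and 1022 in HFD+AOS, 1661, 1297 and 1258 in HFD, 1227, 1164 and 1032 in AOS, and 575, 1115 and 707 in control spleens. The lowest library of HFD+AOS-FMT, HFD+control-FMT and HFD held 1109 FPKM, a mark taken from these values. Below it lay 2 of 3 libraries of HFD+AOS, 1 of 3 of AOS and 2 of 3 of control, while control replicate 2 lay just above it at 1115. The means ran in the order HFD+control-FMT (1584 ± 458 FPKM, SD, n = 3), HFD (1406 ± 222), HFD+AOS-FMT (1264 ± 134), AOS (1141 ± 99.8), HFD+AOS (976 ± 236) and control (799 ± 282), and each group overlapped the next.

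Ccl19 encodes the soluble T zone chemokine, which shares CCR7 with CCL21. It had 183, 130.5 and 176 FPKM in HFD+AOS-FMT, 285, 192 and 170.5 in HFD+control-FMT, 149, 154 and 141 in HFD+AOS, 228, 226 and 144 in HFD, 192, 205 and 158 in AOS, and 87.7, 220.0 and 117 in control spleens. The same library, HFD+control-FMT replicate 1, was the highest for Ccl19 and for Ccl21a, and control replicates 1 and 3 were the lowest for both. The HFD+AOS libraries were the most alike, between 141 and 154 FPKM, and every group overlapped the next in the order of means.

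Cxcl13 encodes the follicle chemokine, made by follicular dendritic and marginal reticular cells. It had 269, 245 and 181 FPKM in HFD+AOS-FMT, 185, 261 and 281 in HFD+control-FMT, 194, 215 and 231 in HFD+AOS, 243, 283 and 287 in HFD, 288, 250.4 and 268 in AOS, and 166, 251 and 279.6 in control spleens. Its full range was 1.73-fold, the narrowest of the 8 genes, and group means lay between 213 FPKM in HFD+AOS and 271 FPKM in HFD. Cxcl12, whose product also keeps blood precursors in their niches, had 187, 288 and 179.9 FPKM in HFD+AOS-FMT, 185, 194 and 294 in HFD+control-FMT, 179, 218 and 294 in HFD+AOS, 246, 249 and 275 in HFD, 192, 249 and 221 in AOS, and 166, 249.6 and 305 in control spleens. For Cxcl12, 90.6% of the variance between libraries lay within groups, and its lowest and highest libraries were both controls.

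Ccr7, the receptor of CCL19 and CCL21, had 48.8, 70.4 and 59.7 FPKM in HFD+AOS-FMT, 56.6, 59.3 and 53.1 in HFD+control-FMT, 47.7, 55.3 and 56.9 in HFD+AOS, 70.5, 72.4 and 71.8 in HFD, 54.1, 47.8 and 53.1 in AOS, and 31.6, 42.6 and 68.0 in control spleens. The HFD libraries were the 3 highest of the 18, with a mean of 71.5 ± 0.981 FPKM (SD, n = 3). HFD+AOS-FMT replicate 2 and control replicate 3 came next, close below them. No other step in the order of Ccr7 means separated neighbouring groups.

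Cxcr5, the receptor of CXCL13, had 76.8, 81.5 and 94.3 FPKM in HFD+AOS-FMT, 77.7, 83.8 and 88.2 in HFD+control-FMT, 67.3, 81.3 and 90.9 in HFD+AOS, 81.4, 114 and 120.4 in HFD, 83.2, 70.6 and 92.9 in AOS, and 57.2, 66.0 and 96.0 in control spleens. HFD replicates 2 and 3 were the highest libraries, while HFD replicate 1 lay among the other groups, which all overlapped.

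Cxcr4, the receptor of CXCL12, had 147, 219 and 164 FPKM in HFD+AOS-FMT, 141, 135 and 178 in HFD+control-FMT, 59.7, 63.5 and 136 in HFD+AOS, 77.8, 175 and 168 in HFD, 95.3, 96.6 and 98.0 in AOS, and 74.4, 113 and 202 in control spleens. It had the widest range of the 8 genes, at 3.68-fold, and its lowest libraries were HFD+AOS replicates 1 and 2. The coefficient of variation was 1.41% among AOS libraries and 50.6% among control libraries. All neighbours in the order of means overlapped.

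Gpr183, the oxysterol receptor, had 22.1, 24.3 and 25.2 FPKM in HFD+AOS-FMT, 23.9, 24.3 and 22.9 in HFD+control-FMT, 19.2, 22.5 and 20.7 in HFD+AOS, 23.4, 25.6 and 31.8 in HFD, 19.5, 18.9 and 22.2 in AOS, and 15.3, 16.7 and 24.8 in control spleens. HFD replicate 3 was the highest library and control replicates 1 and 2 the lowest. HFD+control-FMT lay above HFD+AOS, its lower neighbour in the order of means, without overlap.

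HFD spleens were set against control spleens to ask what the diet alone did. None of the 8 genes passed an adjusted p of 0.05 in limma's moderated test on log2(FPKM + 1), with Benjamini-Hochberg adjustment over all genes tested; 2.75% of all genes passed. All 8 were higher in HFD, with log2 differences between 0.14 and 0.86 and a median of 0.52, against a median of 0.10 over all genes. An unadjusted p under 0.05 was reached by 4 of the 8 and by 28.6% of all genes. They were Ccl21a (log2 difference 0.86 ± 0.24 SE, a 1.81-fold level, adjusted p = 0.055), Gpr183 (0.51 ± 0.14, adjusted p = 0.0562), Ccr7 (0.65 ± 0.19, adjusted p = 0.0629) and Cxcr5 (0.54 ± 0.18, adjusted p = 0.0856). Ccl21a and Ccr7 did not overlap between HFD and control, where 14% of all genes were higher without overlap. The 95% intervals of Ccl19 (-0.03 to 1.16), Cxcl13 (-0.15 to 0.66), Cxcl12 (-0.38 to 0.65) and Cxcr4 (-0.66 to 0.95) all covered 0.

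These differences changed with single libraries. Without control replicate 3, in which Ccr7, Cxcr5, Cxcr4 and Gpr183 were highest of the controls, 29.3% of all genes passed (3818), and 4 of the 8 did: Ccr7 (0.94, adjusted p = 0.00436 by limma), Gpr183 (0.71, 0.00436), Cxcr5 (0.75, 0.00852) and Ccl21a (0.80, 0.0446). Without HFD replicate 1, Cxcr5 (0.71, adjusted p = 0.0319 by limma) and Gpr183 (0.60, 0.0329) passed, among 9.28% of all genes (1204). Without control replicate 1, none passed, and the differences were 0.65 for Ccl21a, 0.40 for Ccr7, 0.38 for Cxcr5 and 0.37 for Gpr183, with Cxcl12 and Cxcr4 lower in HFD. Leaving out HFD replicate 2 or 3 also turned Cxcr4 lower. Over all 27 alternatives the adjusted p ran between 0.0403 and 0.339 for Ccl21a, 0.00436 and 0.355 for Ccr7, 0.00852 and 0.383 for Cxcr5 and 0.00436 and 0.355 for Gpr183. The number of all genes called ran between 0 and 3818 as each library in turn was left out, with 0 called in 11 of 18 cases.

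**Figure D2:**
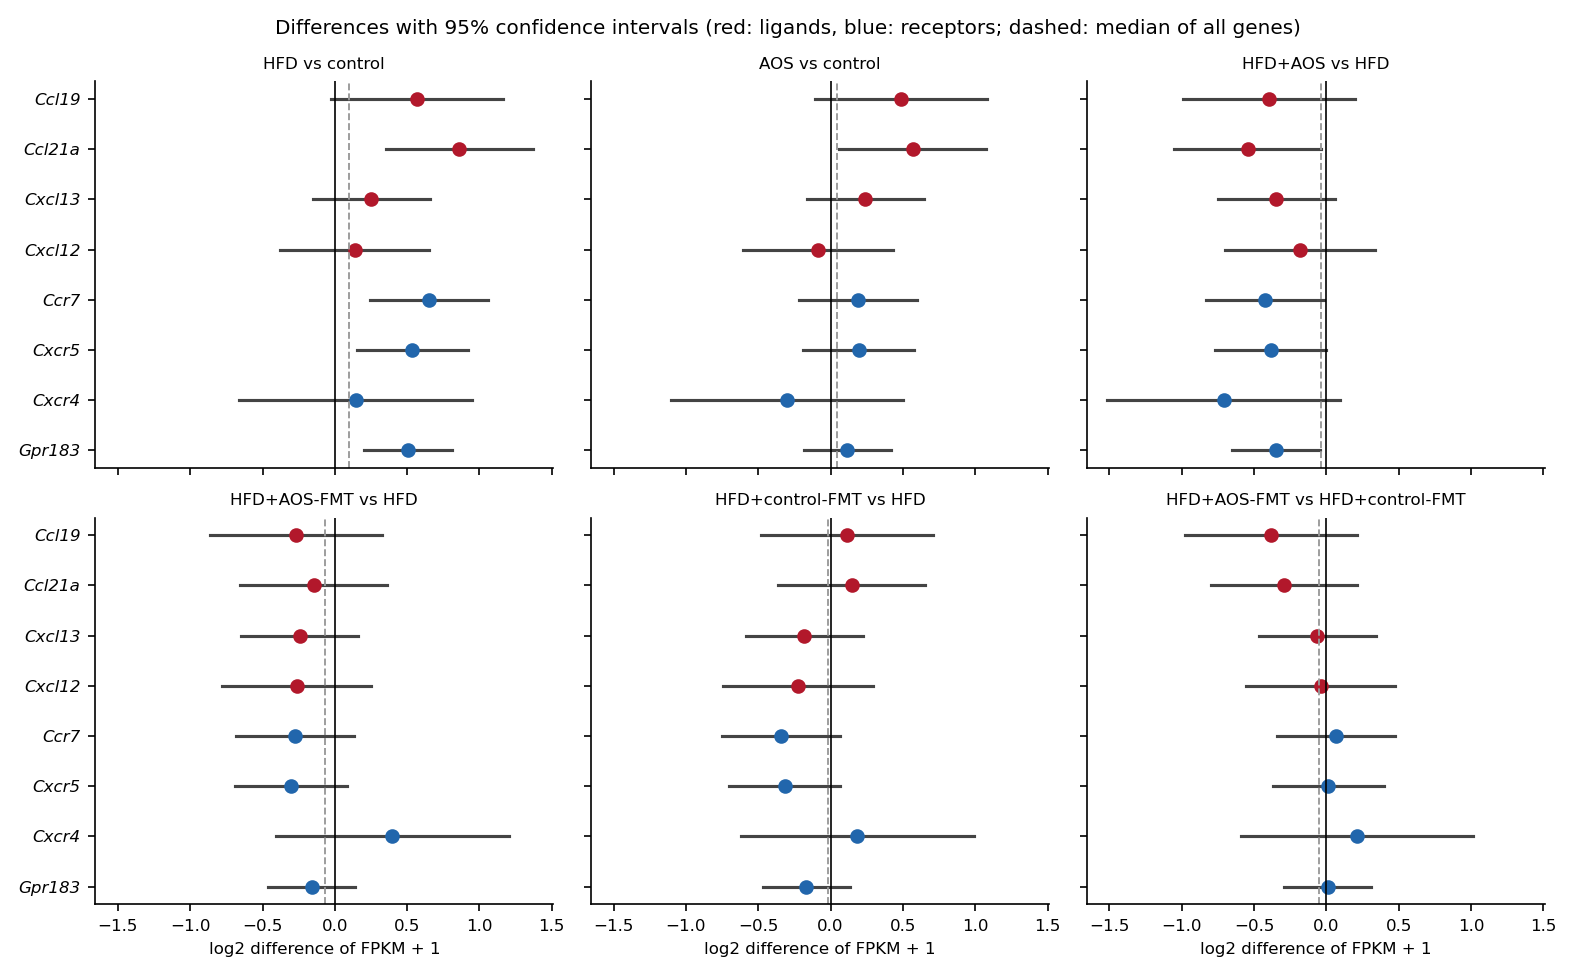
Log2 differences of FPKM + 1 (horizontal axes) for the 8 genes in 6 comparisons, named above each panel as first group vs second group; points are estimates, lines are 95% confidence intervals and the dashed line is the median of all genes. In HFD vs control all 8 points lie right of 0, in HFD+AOS vs HFD all 8 lie left of it, and the Cxcr4 intervals are the widest.

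Markers of the cells that carry or make these molecules moved as well. All 10 T cell markers were higher in HFD than in control, and 4 of them passed (Cd4, Cd3g, Cd28 and Lck), with summed levels of 564 to 590.4 FPKM in HFD and 264 to 468 FPKM in control. All 9 B cell markers were higher and 1 passed (Cd72), with sums of 2626 to 3219 FPKM in HFD and 1592 to 2715 FPKM in control. All 10 erythroid markers were lower and 5 passed. Their mean log2 level was 9.32, 8.05 and 7.26 in HFD replicates 1 to 3, against 9.15 to 9.40 in control. HFD replicate 1 thus lay inside the control range. All 9 neutrophil markers were lower, with sums of 628 to 1136 FPKM in HFD and 829 to 15671 FPKM in control. Of the dendritic cell markers, all 9 tested were higher, with a median log2 difference of 0.48, 6 at an unadjusted p under 0.05 and none called by limma. All 7 markers of follicular dendritic and marginal reticular cells, which make CXCL13, were higher, with a median of 0.19 and none called. Stromal cell markers had a median log2 difference of 0.10, with 6 of 8 higher and none called.

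The members were then set against these markers within each library. Ccr7 minus the mean of the T cell markers (log2 scale) averaged 0.55 ± 0.05 in HFD and 0.54 ± 0.28 in control (SD, n = 3 each), a difference of 0.00 (exact permutation test, two-sided, p = 1). Relative to B cell markers, Cxcr5 differed by 0.09 (exact permutation p = 0.7) Gpr183 by 0.06 (exact permutation p = 0.9) and Cxcr4 by -0.30 (exact permutation p = 0.6). Ccl21a minus the stromal cell markers averaged 6.67 ± 0.05 in HFD and 5.94 ± 0.26 in control, a difference of 0.73 with no overlap (exact permutation p = 0.1, the smallest that 3 against 3 libraries allow). Ccl19 minus the same markers differed by 0.44, with overlap (exact permutation p = 0.3). The other ligands differed less relative to them, Cxcl13 by 0.12 and Cxcl12 by 0.005, both with overlap. T cell markers were also higher in HFD, and the level of Ccl21a followed those of Cd3d and Lck over the libraries, as given below; their part in the result was not tested.

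**Figure D3:**
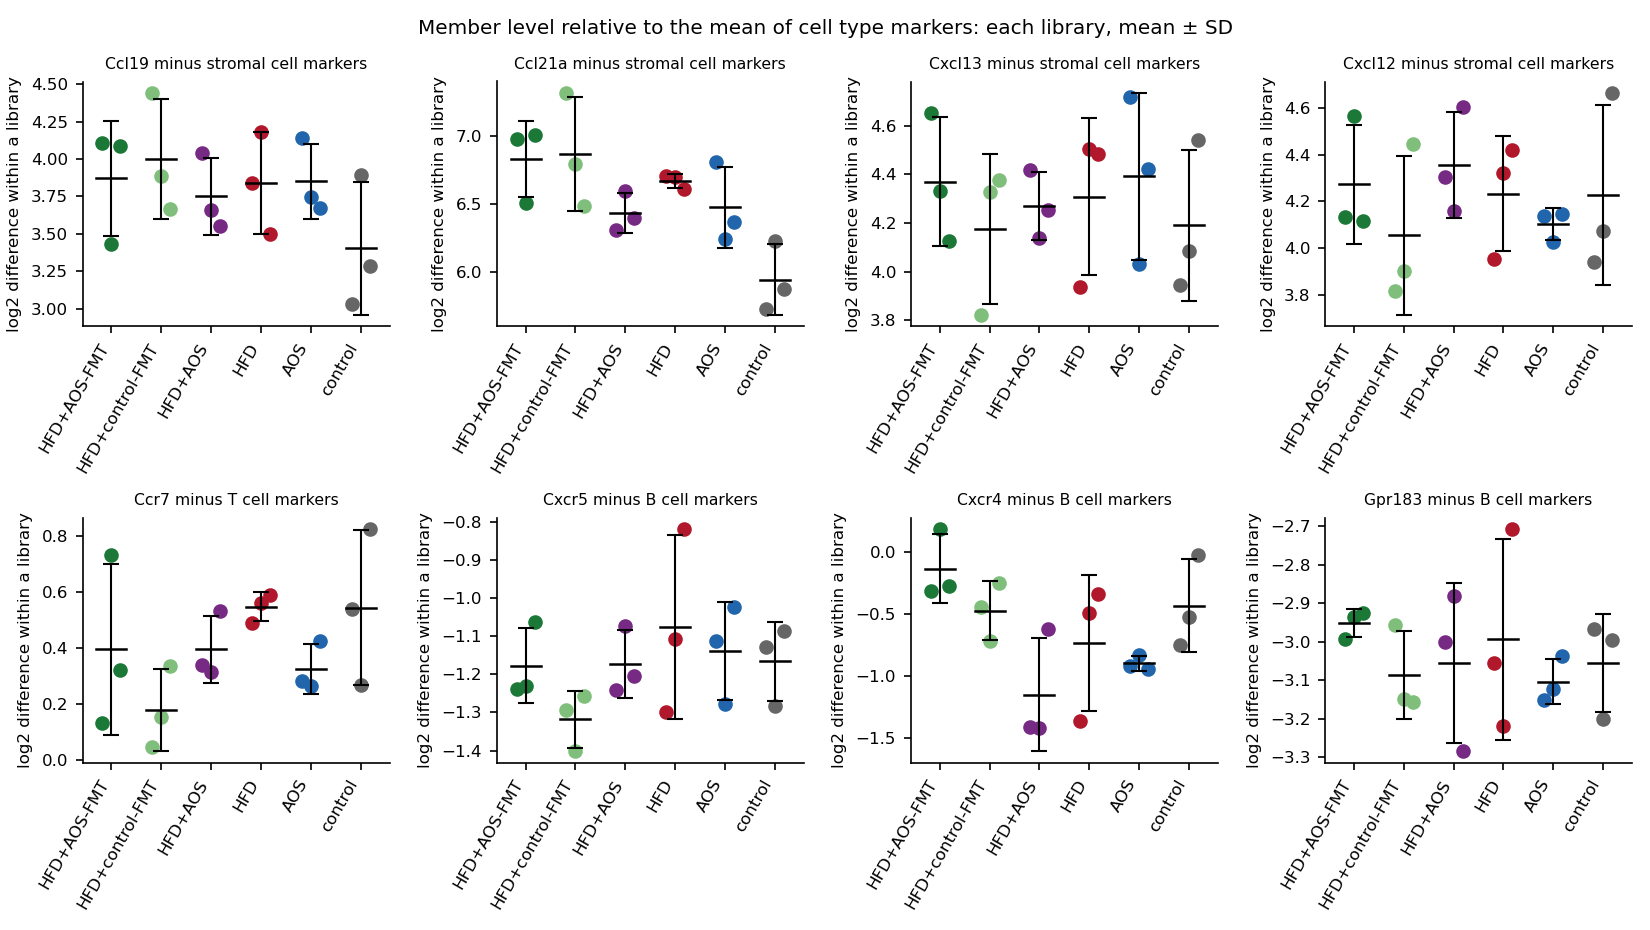
Log2 level of each gene minus the mean log2 level of cell type markers in the same library (vertical axes) for the 6 groups (horizontal axes); ligands are set against stromal cell markers, Ccr7 against T cell markers and the other receptors against B cell markers, points are libraries and bars are mean ± SD of 3 libraries. The 3 HFD libraries of Ccl21a, at 6.61 to 6.70, lie above the 3 control libraries, at 5.73 to 6.23, while Ccr7 in HFD lies inside the control range.

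AOS was set against control without the diet. None of the 8 genes passed, as none of all 12969 did in limma's test (0% called, with 1998 genes at an unadjusted p under 0.05). Ccl21a was higher in AOS with an unadjusted p under 0.05 (0.57 ± 0.24, adjusted p = 0.276), and by 0.36 without control replicate 1. The other genes differed by -0.30 (Cxcr4) to 0.49 (Ccl19). All 8 overlapped between AOS and control, where 11.7% of all genes were higher and 5.1% lower without overlap. In AOS 6 of the 8 were higher and 2 lower, with a median of 0.19. Without control replicate 1 they split into 4 higher and 4 lower, with a median of 0.00, and without control replicate 3 all 8 were higher, with a median of 0.40. Beside them all 10 T cell markers were higher in AOS, with a median of 0.41, 7 at an unadjusted p under 0.05 and none called by limma; their part in the result was not tested. Relative to stromal markers Ccl21a was 0.53 higher in AOS, and relative to B cell markers Cxcr4 differed by -0.47, both with no overlap (exact permutation p = 0.1 each, the smallest possible).

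AOS given on the diet was set against the diet alone, which shares the HFD libraries with the comparison of HFD and control. All 8 genes were lower in HFD+AOS than in HFD, by log2 differences of -0.18 to -0.71 with a median of -0.39, against -0.03 over all genes. None passed the adjusted p, nor did any of all genes (0% called by limma, 1947 at an unadjusted p under 0.05). An unadjusted p under 0.05 was reached by 4 of the 8: Ccl21a (-0.54 ± 0.24, adjusted p = 0.312), Ccr7 (-0.42 ± 0.19, 0.324), Cxcr5 (-0.39 ± 0.18, 0.333) and Gpr183 (-0.35 ± 0.14, 0.292). Ccl21a, Cxcl13, Ccr7 and Gpr183 were lower without overlap, against 9.57% of all genes. The labels name no pairing, but deviations from group means correlated weakly between same-numbered libraries of these groups. Of the 8 genes, 7, all but Cxcl12, were lower in HFD+AOS in each of the 3 same-numbered pairs, against 27.4% of all genes. For Ccl21a, Cxcl13, Ccr7 and Gpr183, which did not overlap, any pairing gives this, so the pairs add nothing there. The pairing was also read from these same libraries. Cxcr5 differed by -0.27, -0.49 and -0.40 in the 3 pairs and Cxcr4 by -0.38, -1.45 and -0.30. Cxcr4 had the largest difference (-0.71) and the widest interval (-1.51 to 0.10), with HFD+AOS replicate 3 above the other libraries of its group and HFD replicate 1 below those of its own. With the replicate number as a block, 33 genes were called where none was without it. Still none of the 8 passed (lowest adjusted p = 0.109, for Cxcr5, by limma). That block spanned all 6 groups, so it was not a paired test of HFD+AOS and HFD. All 8 stayed lower in HFD+AOS when any library was left out, but the sizes moved. Without HFD+AOS replicate 1 the difference was -0.34 for Ccl21a and -0.02 for Cxcl12, which had -0.37 without HFD+AOS replicate 3, and without HFD replicate 3 it was -0.23 for Gpr183. Cxcr4 ran between -1.09, without HFD replicate 1 or HFD+AOS replicate 3, and -0.50, without HFD+AOS replicate 1. For Ccl19 the difference was -0.61 without HFD replicate 3.

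Beside these values, 9 of 10 T cell markers, 9 of 9 B cell markers, 7 of 8 stromal cell markers, 6 of 7 follicular dendritic and marginal reticular cell markers and 7 of 9 dendritic cell markers were lower in HFD+AOS, none past the adjusted p. T cell markers summed to 432 to 498 FPKM in HFD+AOS and 564 to 590.4 FPKM in HFD, and stromal markers to 118 to 161 FPKM in HFD+AOS and 173 to 247 FPKM in HFD. Ccl21a relative to stromal markers differed by -0.24 without overlap (exact permutation p = 0.1, the smallest possible). The other ligands overlapped relative to those markers. Ccl19 differed by -0.09, Cxcl13 by -0.04 and Cxcl12 by 0.12 (exact permutation p = 0.8, 0.8 and 0.6). Ccr7 relative to T cell markers differed by -0.15 (exact permutation p = 0.2). Cxcr5, Gpr183 and Cxcr4 relative to B cell markers differed by -0.10, -0.06 and -0.42 (exact permutation p = 0.7, 0.8 and 0.2). These tests leave the possible pairing by number out. Exocrine pancreas markers summed to 144 to 10634 FPKM in HFD+AOS and 80.3 to 1647 FPKM in HFD, and their part in the result was not tested.

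Whether AOS did the same with and without the diet was tested as an interaction. All 8 genes had a negative interaction, meaning a lower difference between AOS and no AOS on the diet than off it, with a median of -0.58 against -0.09 over all genes. None passed the adjusted p (0% called over all genes by limma, 2058 at an unadjusted p under 0.05), while 6 of the 8 had an unadjusted p under 0.05. The largest was Ccl21a (-1.11 ± 0.34 SE, adjusted p = 0.221), for which AOS went with a higher level off the diet and a lower one on it. Ccl19 followed at -0.88 ± 0.39 (adjusted p = 0.303). Under median-ratio scaling, 1 of the 8 had a positive interaction, and that of Cxcl12 was positive without HFD+AOS replicate 1 (0.07) and without control replicate 1 (0.15). Without control replicate 1 the median of the 8 was -0.36, with Ccr7 at -0.36 against -0.61 with all libraries and Cxcl13 at -0.36 against -0.58. The interaction draws on the HFD and control libraries used above.

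The 2 FMT groups were each set against HFD, and so share the HFD libraries. In HFD+AOS-FMT, 7 of the 8 genes were lower than in HFD and Cxcr4 was higher, with log2 differences of -0.30 (Cxcr5) to 0.40 (Cxcr4). None passed (0% called over all genes by limma, 1770 at an unadjusted p under 0.05), and none had an unadjusted p under 0.05. Ccr7 was the only one without overlap, with 59.7 ± 10.8 FPKM in HFD+AOS-FMT and 71.5 ± 0.981 FPKM in HFD (SD, n = 3 each), where 16.7% of all genes were lower without overlap; the gap between its nearest libraries was 70.4 against 70.5 FPKM. Relative to B cell markers Cxcr4 was 0.60 higher in HFD+AOS-FMT, without overlap (exact permutation p = 0.1, the smallest possible).

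In HFD+control-FMT, 5 of the 8 genes were lower than in HFD, and Ccl19, Ccl21a and Cxcr4 were higher, with differences of -0.34 (Ccr7) to 0.19 (Cxcr4). These higher values changed with single libraries. Without HFD+control-FMT replicate 1, Ccl19 (-0.11) and Ccl21a (-0.08) were lower than in HFD, without HFD replicate 3 Ccl19 was lower (-0.10), and without HFD replicate 1 Cxcr4 was lower (-0.19). None passed, and 0.0154% of all genes did. Ccr7 was again the only one without overlap, at 56.3 ± 3.08 FPKM in HFD+control-FMT, where 5.59% of all genes were lower without overlap. Here Ccr7 was also lower relative to T cell markers, with a difference of -0.37 without overlap (exact permutation p = 0.1, the smallest possible).

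The donor was tested by setting HFD+AOS-FMT against HFD+control-FMT. None of the 8 genes passed, and 0.00771% of all genes did. The 4 receptors differed by 0.01 to 0.21, and the ligands by -0.38 (Ccl19), -0.29 (Ccl21a), -0.06 (Cxcl13) and -0.04 (Cxcl12). Without HFD+control-FMT replicate 1, the highest library of both, Ccl19 differed by -0.16 and Ccl21a by -0.07. Of the 8, only Ccl19 and Ccl21a, which were lower, and Cxcr4, which was higher, kept their direction when any library of the 2 groups was left out; the receptors Ccr7, Cxcr5 and Gpr183 each turned lower in at least 1 case. All 8 overlapped between the groups, where 7.8% of all genes were higher and 15.6% lower without overlap. Relative to B cell markers Cxcr5 was 0.14 higher in HFD+AOS-FMT, without overlap (exact permutation p = 0.1, the smallest possible). Each other member overlapped relative to its own markers. The 95% interval for Gpr183, -0.29 to 0.31, was the narrowest, and that for Cxcr4, -0.59 to 1.02, the widest. With all columns scaled to the same total, 7 of the 8 were lower in HFD+AOS-FMT, against 4 here.

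The 4 groups on the diet were also set against the 2 groups off it. Ccl21a (0.44 ± 0.15, adjusted p = 0.174), Ccr7 (0.30 ± 0.12, adjusted p = 0.202) and Gpr183 (0.28 ± 0.09, adjusted p = 0.173) had an unadjusted p under 0.05 by limma, as 19.9% of all genes had, and none passed; 0.0617% of all genes did. Without control replicate 3, Ccr7 (0.45, adjusted p = 0.0125) and Gpr183 (0.38, adjusted p = 0.0115) passed by limma, among 2157 genes (16.5%); over all 27 alternatives the adjusted p ran between 0.0125 and 0.545 for Ccr7 and between 0.0115 and 0.442 for Gpr183. In the F test over the 6 groups none of the 8 passed, and 0.116% of all genes did; the smallest adjusted p was that of Ccl21a (0.12), and without control replicate 3 Ccr7 and Gpr183 passed, among 8.13% of all genes (1060).

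Ligands and receptors were compared over the 18 libraries, with 4 pairs tested. Cxcl13 with Cxcr5 had r = 0.55 (permutation p = 0.0186, adjusted over the 4 pairs 0.0644) and rho = 0.51. Cxcl12 with Cxcr4 had r = 0.51 (permutation p = 0.0322, adjusted 0.0644) and rho = 0.57. Ccl21a with Ccr7 had r = 0.47 (permutation p = 0.0501, adjusted 0.0668) and rho = 0.41, and Ccl19 with Ccr7 r = 0.26 (permutation p = 0.286, adjusted 0.286) and rho = 0.07. No pair passed an adjusted p of 0.05.

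The pairs differed in how far they rested on single libraries. Without the 2 libraries farthest from the median ligand level, r was 0.55 for Cxcl13 with Cxcr5, 0.37 for Cxcl12 with Cxcr4, 0.21 for Ccl21a with Ccr7 and -0.24 for Ccl19 with Ccr7. With group means removed, r was 0.51, 0.75, 0.13 and 0.00 for the same pairs in that order, the last slightly below 0. Receptor levels also varied with the haemoglobin share of a library, with r = -0.83 for Cxcr5, -0.66 for Ccr7 and -0.51 for Cxcr4. With group means removed, endothelial cell markers had r = 0.92 with Cxcl12, 0.91 with Cxcr4, 0.77 with Cxcr5, 0.72 with Ccr7, 0.67 with Gpr183 and 0.60 with Cxcl13. Their r was -0.26 with Ccl19 and -0.10 with Ccl21a. Neutrophil markers had r = -0.92 with Ccr7 in the same way, -0.84 with Gpr183, -0.81 with Cxcr5 and -0.74 with Cxcr4. With the ligands their r was -0.59 for Cxcl13, -0.58 for Cxcl12, -0.21 for Ccl21a and -0.03 for Ccl19. The part of library make-up in the relations was not tested.

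**Figure D4:**
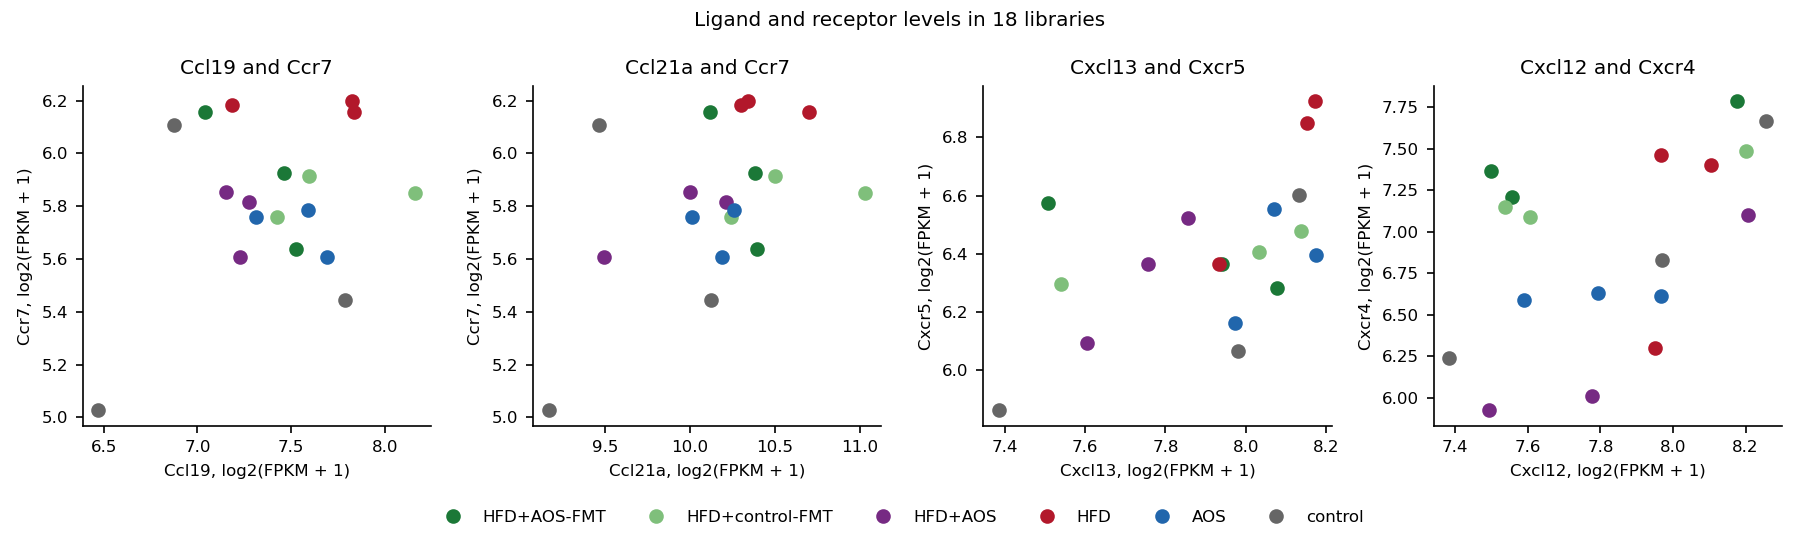
Receptor level against ligand level in log2(FPKM + 1) for the 4 pairs, one point per library, coloured by group. Control replicate 1 sits at the lower left of the first 3 panels, and the r values are 0.26, 0.47, 0.55 and 0.51 from left to right.

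Other relations between members had a higher r over the 18 libraries than any ligand with its receptor. Ccl19 with Ccl21a had r = 0.85 over 18 libraries and 0.82 with group means removed, while Ccl19 had r = 0.19 with Cxcl13 and -0.09 with Cxcl12. Among the receptors, Ccr7 with Gpr183 had r = 0.88, Cxcr5 with Gpr183 0.87 and Ccr7 with Cxcr5 0.82. These are descriptions over libraries that differ in cell make-up, and 2 genes measured in the same library share its depth and make-up.

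The genes most like each member by Pearson r over the 18 libraries, among the 9495 genes averaging 5 FPKM or more, fell into several kinds. Ccl19 was followed by Gm12407 (r = 0.94) and by Gm2457 and Gm2564 (both 0.90, with the same lowest and highest values), which lie on the same chromosome. Ccl21a was followed by Serpina3n (0.93), a protease inhibitor, and by the T cell genes Cd3d (0.92) and Lck (0.90). Cxcr5 was followed by Limd1 (0.96), Ptprc (0.95), which encodes CD45 of all white blood cells, and Ptpn6 (0.95), a phosphatase of blood cells. Ccr7 was followed by Hdac10 (0.94), D2hgdh (0.93) and Il16 (0.93), a cytokine gene of lymphocytes. Gpr183 was followed by Cytip (0.95), Zfp748 (0.93) and Peli1 (0.92), and Cxcr4 by Zfp871 (0.96), Nufip2 (0.95) and Zfp207 (0.95). Cxcl12 was followed by Akap12, Dag1 and Tns1 (all 0.93), which encode a scaffold protein, dystroglycan and tensin, and Cxcl13 by Tagap1 (0.83), Ivd (0.83) and Mon1a (0.82).

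Of the 724 windows of 50 bases in the Ccl19 transcript, 59.1% also occur in transcripts of Gm2564, Ccl19-ps3, Gm12407 or Ccl19-ps1, and of the 821 windows of Ccl21a, 71.6% occur in those of Gm21541, Gm13304, Ccl21b or Gm10591. The windows of the other 6 genes occur in no other gene. How reads that fit several copies were counted is not given in the sources used here, so the levels of Ccl19 and Ccl21a are uncertain in how they were split among copies. The row of Ccl21c held at most 0.72 FPKM, and that of Ccl21b, whose product differs little from that of Ccl21a, held 28.8 to 122.8 FPKM. Ccl21b averaged 96.8 FPKM in HFD+control-FMT, 76.7 in HFD+AOS-FMT, 69.5 in AOS, 57.6 in HFD, 48.0 in HFD+AOS and 44.0 in control spleens. Unlike for Ccl21a, its HFD libraries (43.6 to 81.8 FPKM) overlapped those of control (28.8 to 66.9 FPKM).

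The other genes of the pathway were taken from 8 lists, of which 102 genes were in the table. In HFD against control, 3 of 12 genes for lymphotoxin and non-canonical NF-kB signalling rose and none fell, with a list median of 0.36; 1.46% of all genes rose and 1.3% fell. T and B cell markers were higher too, with medians of 0.68 and 0.43, and their part in the result was not tested. This pathway drives the stroma to make homeostatic chemokines. Tnf, an inflammatory cytokine that also shapes follicles, averaged 9.56 ± 1.04 FPKM in HFD and 5.58 ± 0.294 FPKM in control (SD, n = 3 each; log2 difference 0.68 ± 0.13, adjusted p = 0.0443). Ltb, a subunit of the lymphotoxin that lymphocytes display, averaged 343 ± 21.9 FPKM in HFD and 250.1 ± 37.1 FPKM in control (0.46 ± 0.10, adjusted p = 0.0443). Nfkb2, the NF-kB subunit downstream of the lymphotoxin receptor, averaged 57.0 ± 3.95 FPKM in HFD and 41.6 ± 8.51 FPKM in control (0.46 ± 0.11, adjusted p = 0.0459). The receptor itself, Ltbr, which stroma carries, differed by 0.03.

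In HFD+AOS against HFD, 9 of the 12 genes of that list were lower and none passed, with Ltb at -0.36 (adjusted p = 0.192 by limma), Nfkb2 at -0.36 (0.2) and Tnf at -0.21 (0.432). Against HFD, the HFD+AOS-FMT group had 11 of the 12 genes lower, none called.

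Among 22 other chemokine ligands tested, 1 rose in HFD against control and none fell: Cxcl16, a membrane-bound chemokine of macrophages and dendritic cells, with 18.4 ± 0.132 FPKM in HFD and 13.3 ± 2.69 FPKM in control (log2 difference 0.46 ± 0.11, adjusted p = 0.0452 by limma). Of 12 other egress and positioning receptors, all were higher and 1 rose, Itgb7, an integrin subunit for homing to the gut (0.53 ± 0.13, adjusted p = 0.0464 by limma). Of 6 regulators of the receptors, all were higher and 1 rose, Bcl6, the transcription factor of germinal centre B cells and follicular helper T cells (0.53 ± 0.10, adjusted p = 0.0443 by limma). Of 23 genes of chemokine receptor signalling, 22 were higher and none rose, and 1 fell: Arrb1, an arrestin that uncouples such receptors, with 32.6 ± 6.08 FPKM in HFD and 50.7 ± 8.31 FPKM in control (-0.62 ± 0.14, adjusted p = 0.0444 by limma).

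These 7 calls were near the threshold. Each held in 8 to 11 of 27 alternatives. Each was lost under median-ratio scaling, after removing haemoglobin genes, with no filter on low values and in a fit to HFD and control alone. In those settings no gene was called for HFD against control. The sign stayed the same in all 27, but many alternatives can change only the p and not the difference. With a library left out, each held in 4 to 6 of 18 cases. Outside HFD against control, no gene of the 8 lists passed in any other comparison.

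**Figure D5:**
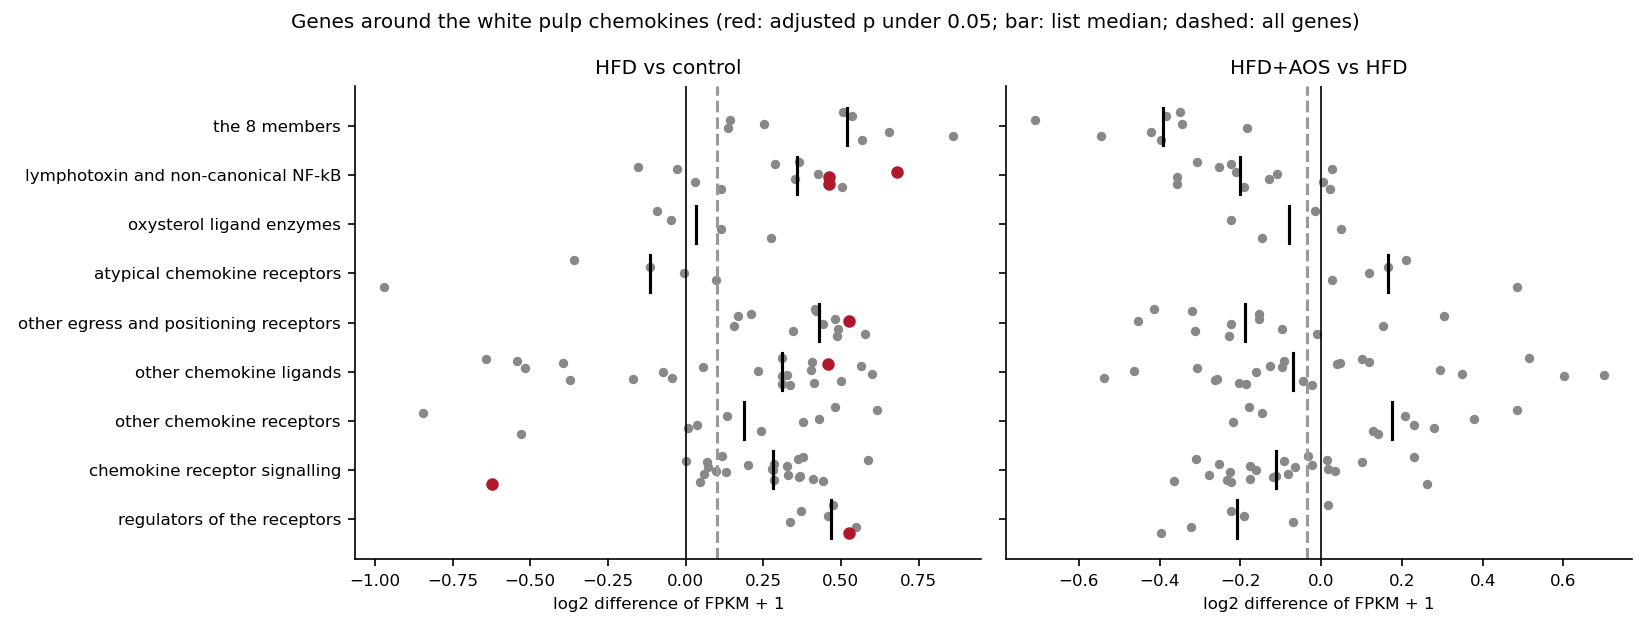
Log2 differences of FPKM + 1 (horizontal axes) for the 8 members and 8 lists of related genes (vertical axis) in HFD vs control, on the left, and HFD+AOS vs HFD, on the right; points are genes, red ones had an adjusted p under 0.05, black bars are list medians and dashed lines the median of all genes. The left panel holds 7 red points, of which Arrb1 alone is left of 0, and the right panel holds none.

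The lists with no call were those of the atypical receptors, other chemokine receptors and oxysterol enzymes. Among atypical receptors, which bind their ligands without the usual signalling, Ccrl2 averaged 7.71 ± 1.27 FPKM in HFD+AOS-FMT, 4.93 ± 0.365 in HFD+control-FMT, 5.91 ± 1.16 in HFD+AOS, 4.96 ± 0.853 in HFD, 6.56 ± 0.761 in AOS and 6.58 ± 0.290 in control (SD, n = 3 each; F test by limma, adjusted p = 0.118). Ackr1, carried by red cells and venules, had means between 13.2 FPKM in HFD and 27.1 FPKM in control (F test by limma, adjusted p = 0.271). Among other receptors, Cxcr3 of effector T cells averaged 21.9 ± 4.33 FPKM in HFD+AOS, 15.2 ± 0.622 in HFD, 19.4 ± 4.96 in AOS and 9.68 ± 2.16 in control (F test by limma, adjusted p = 0.0658). That F test also takes in the FMT groups, whose Cxcr3 levels are not given here, so it is not a test of AOS. Cyp7b1 and Hsd3b7, which make and break down the oxysterol ligand of GPR183, had the smallest p of the 4 oxysterol enzymes, with adjusted p = 0.797 and 0.815 in limma's F test.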

How the data were processed

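Reads were aligned with Bowtie 0.12.2 to mm10, per the submitters' processing notes. The counting program, annotation and filters were not given in the sources used here. The authors deposited 1 table of FPKM values; that unit is read from the values, since sums of value times transcript length varied by 0.785% between libraries against 7.55% for plain totals. Column codes were matched to sample titles.

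Values were taken as log2(FPKM + 1) and fitted with limma 3.58.1 (trend, robust; R 4.3.3, statmod 1.5.0) in 1 model of 18 libraries and 6 groups, over the 12969 genes whose mean reached 1 FPKM in any group, with Benjamini-Hochberg adjustment at 0.05. Differences are on that scale, which understates changes of low genes. Scripts were tested on simulated data. Members relative to marker lists were compared by exact permutation tests, and ligand-receptor pairs by 100000 permutations (Python 3.11.15, numpy 2.4.6, pandas 2.3.3). Members, lists and tests were chosen with earlier results of these data known. The text names all 8 members, the 3 genes most like each, and from each pathway list the genes past the threshold or, with none, the 2 with the smallest F test p; marker genes that passed were named after their values were seen. 1 gene that this choice names is not reported here.

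The labels name no pairing of libraries. HFD+AOS and HFD were read as paired by number because correlations of same-numbered deviations from group means were 0.24, 0.27 and 0.19. In each other comparison at least 1 was under 0.1, though single values reached 0.51, between the FMT groups. Libraries with different numbers were not compared in this way, so the pairing is uncertain. Alternatives were pseudocount 0.1, no filter, a mean of at least 5 FPKM, 3 scalings, limma without the robust step, a replicate block, a fit to the compared groups, and each library left out. Gene positions are from GENCODE on GRCm38 and promoters from RefSeq on GRCm38.p6.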

Additional observations from a re-analysis of the deposited data

How the results depend on the processing

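Of the member differences with an unadjusted p under 0.05, 18 in all, none changed sign in any of 27 alternatives each, and 6 passed the adjusted p in at least 1. Many of these alternatives can change only the p. They are the filters, the robust step, the block, the fit to compared groups and leaving out a library of another group. The 18 were also chosen by their p, so their unchanged signs say little. The median of all genes in HFD against control was 0.10, and it was 0.00 under median-ratio scaling (slightly below 0) and 0.25 with all columns scaled to the same total. All 8 members were above that median in HFD against control, and below it in HFD+AOS against HFD, under each scaling. A scaling moves the members and the median of all genes by nearly the same amount, so this was almost fixed in advance. The alternatives moved the following counts of genes past an adjusted p of 0.05. The cause of these moves was not tested.

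With a mean of at least 5 FPKM required, HFD against control called 625 genes and 2 members (Ccl21a and Gpr183), HFD+AOS against HFD 1, HFD+control-FMT against HFD 1, diet against no diet 5 and the F test 38. With no filter the counts were 0 for HFD against control, 5 for diet against no diet and 2 for the F test. A pseudocount of 0.1 gave 1 for HFD+control-FMT against HFD and 36 for the F test. Median-ratio scaling gave 0 for HFD against control, 2 for HFD+AOS against HFD, 3 for diet against no diet and 7 for the F test. The same total in all columns gave 192 for HFD against control, 1 for HFD+control-FMT against HFD, 2 between the FMT groups, 5 for diet against no diet and 6 for the F test. Without haemoglobin genes the counts were 0 for HFD against control, 1 for HFD+AOS against HFD and 3 for the F test. Fits to the compared groups only gave 0 for HFD against control, 4 between the FMT groups and 1 in each of AOS against control, HFD+AOS against HFD, HFD+AOS-FMT against HFD and HFD+control-FMT against HFD.

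With the replicate block, HFD against control called 1842 genes and 4 members (Ccl21a, Ccr7, Cxcr5 and Gpr183), HFD+AOS against HFD 33 genes and no member, the FMT groups 2 genes and the F test 210; the numbers of HFD and control libraries share only a number, with correlations of 0.15, 0.04 and 0.36.

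Leaving out each library in turn gave 0 to 3818 genes and 0 to 4 members for HFD against control, 0 to 304 genes for AOS against control, 0 to 22 for HFD+AOS against HFD, 0 to 39 for HFD+AOS-FMT against HFD, 0 to 3 for HFD+control-FMT against HFD, 1 to 7 between the FMT groups, 0 to 2157 genes and 0 to 2 members for diet against no diet, and 1 to 1060 genes and 0 to 2 members for the F test. The correlation of Ccl19 with Ccr7 was -0.21 without control replicate 1, and 0.38 at most, without control replicate 3.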

Other observations

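The level of Ccl21a over that of Ccl21b, its near copy, was uneven between libraries. It was 16.1, 17.7 and 16 in HFD+AOS-FMT, 17.1, 15.0 and 17.0 in HFD+control-FMT, 14.8, 27.2 and 19.8 in HFD+AOS, 20.3, 27.4 and 28.8 in HFD, 17.0, 16.3 and 15.8 in AOS, and 19.9, 16.7 and 19.5 in control spleens. HFD replicates 2 and 3 and HFD+AOS replicate 2 stood above the other 15 libraries. The level of Ccl19 over that of Gm12407, a copy of Ccl19, stayed between 5.22 and 8.04. These ratios were chosen after their values were seen and were not tested.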
